A study of Mus musculus with 47 samples.

Results

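The genes Drd1, Drd2, Adora2a, Penk, Ppp1r1b, Rgs9 and Pde10a, which mark the projection neurons of the striatum, were followed through RNA-seq libraries of mouse cortex. They were 7 of 54281 genes in the TPM table (TPM scales each gene by its length and each library to the same total), and all 7 were among the 14580 genes that averaged 1 TPM or more and were tested. The group was selected on these same data, because the 7 genes varied together between cortical libraries, so their covariation is given below as a description without a test. Each library came from the microdissected cortex of 1 hemisphere of 1 male C57BL/6J mouse, wild type and about 3 months old. The mice ate control chow (23 libraries) or chow with PLX5622 at 1200 ppm (24 libraries) for 10 days. PLX5622 inhibits CSF1R, the receptor that microglia need to survive. All mice lived under 12 h of light and 12 h of darkness and were taken at ZT2, ZT6, ZT10, ZT14, ZT18 or ZT22, where ZT0 is lights-on and ZT12 is lights-off, with 4 mice per diet and time and 3 in the control group at ZT14. The tissue was whole cortex and not sorted cells, and the inhibitor reached the entire animal.

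Striatal projection neurons are inhibitory neurons that make up most of the striatum, the input nucleus of the basal ganglia that lies directly beneath the cortex. Neurons of the direct pathway carry the dopamine receptor D1 and the peptide substance P, and neurons of the indirect pathway carry the dopamine receptor D2, an adenosine receptor and enkephalin. Both kinds use a cyclic nucleotide cascade in which dopamine and adenosine set the activity of protein kinase A and of its substrate DARPP-32. Some of these genes are also transcribed in cortex: DARPP-32 and D1 in deep-layer neurons, and enkephalin in a subset of interneurons.

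The genes sit on 6 chromosomes (GRCm38 coordinates from GENCODE M21, whole gene bodies). Drd1 lies at chr13:54051183-54055705, Drd2 at chr9:49340627-49408177, Adora2a at chr10:75316877-75334784 and Penk at chr4:4133531-4138819. Ppp1r1b (chr11:98348404-98357796) and Rgs9 (chr11:109225355-109298129) share a chromosome, and Pde10a spans chr17:8525372-8986648. Penk, Ppp1r1b and Pde10a overlap annotated genes on the other strand, A830012C17Rik, 1700003D09Rik, and Gm15425, Gm17087 and Gm15426 respectively, whose reads cannot be told apart from theirs unless the counting used strand.

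RefSeq held a promoter entry for 4 of the 7 genes, Drd1, Drd2, Rgs9 and Pde10a, with 6 start sites among them. The windows of Drd1, Drd2 and Rgs9 are shown as examples of a gene of the direct pathway, of the indirect pathway and of both. The sequences run 5′ to 3′ on the strand of the gene up to the start site (GRCm38.p6; Drd1 chr13:54055706-54055908, minus strand; Drd2 chr9:49340153-49340402, plus strand; Rgs9 chr11:109298182-109298431, minus strand), the Drd1 window without the bases that the annotated gene covers. Capitals mark the Sp1 box, GGGCGG on either strand.
Drd1: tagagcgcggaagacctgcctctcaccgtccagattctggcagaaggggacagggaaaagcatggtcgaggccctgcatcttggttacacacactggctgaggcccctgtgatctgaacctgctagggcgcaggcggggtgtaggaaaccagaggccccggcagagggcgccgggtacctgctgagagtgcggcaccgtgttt
Drd2: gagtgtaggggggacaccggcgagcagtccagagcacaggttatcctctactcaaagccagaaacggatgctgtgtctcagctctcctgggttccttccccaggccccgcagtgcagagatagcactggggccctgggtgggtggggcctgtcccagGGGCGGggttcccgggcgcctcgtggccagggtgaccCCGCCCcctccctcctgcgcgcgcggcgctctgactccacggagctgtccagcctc
Rgs9: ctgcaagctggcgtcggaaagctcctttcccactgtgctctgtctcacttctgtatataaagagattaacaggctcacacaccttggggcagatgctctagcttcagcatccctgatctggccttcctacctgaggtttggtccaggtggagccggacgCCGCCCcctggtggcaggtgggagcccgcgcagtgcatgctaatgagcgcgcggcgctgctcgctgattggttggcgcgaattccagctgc
Drd2 had 2 Sp1 boxes, Rgs9 had 1 and the Drd1 window shown had 0. Over the 250 bases before all 6 starts, 4 windows held an Sp1 box, against 32.7% of 32851 RefSeq promoter windows of that length. TATAAA was found in 1 of the 6 windows (12.4% of all), CCAAT in 2 (33.8%) and the full cyclic AMP response element TGACGTCA in 0 (1.55%), each searched on both strands. The windows had a GC content of 56.0% to 72.8%, with a median of 52.4% for all promoters. These matches are descriptions of the windows, and no factor's binding was measured.

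The libraries held 16597987 to 27626161 counts, with a median of 18314954 in control and 21476967.5 in PLX5622 mice. The labels were checked first on genes outside the striatal group. Csf1r, the target of the inhibitor, ranged from 31.6 to 84.3 TPM in control and from 0.192 to 10.1 TPM in PLX5622 libraries, and the diets did not overlap. Dbp, a clock output gene, averaged 128 ± 11.5 TPM at ZT14 (SD, n = 3) and 52.2 ± 4.72 TPM at ZT2 (SD, n = 4) in control mice, with 126 ± 11.8 and 42.7 ± 2.702 TPM in PLX5622 mice (SD, n = 4). Arntl, the clock activator BMAL1, had the opposite order, with 8.51 ± 1.002 TPM at ZT14 (SD, n = 3) and 14.5 ± 1.79 TPM at ZT2 (SD, n = 4) in control mice. Slc17a7, the vesicular glutamate transporter of cortical excitatory neurons, had 388 to 785 TPM (median 533), so every library carried the marker of its labelled tissue.

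The striatal genes were well above the detection limit in all 47 libraries, and each of them differed several-fold from mouse to mouse. In bulk tissue, fewer cells of a type and less RNA per cell cannot be told apart. Drd1, the receptor of the direct pathway, had a lowest, median and highest level of 3.53, 20.4 and 43.3 TPM in control mice and of 9.45, 26.7 and 42.1 TPM in PLX5622 mice. The lowest value, from control mouse 2 at ZT10, rested on 126 counts and the highest, from control mouse 4 at ZT2, on 820. The span was thus 12.3-fold in control and 4.45-fold in PLX5622 mice, and 5.95-fold in control mice without mouse 2 at ZT10.

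The receptors and the peptide of the indirect pathway spread in the same manner. Drd2 ran from 3.82 over a median of 12.98 to 24.1 TPM in control mice and from 3.70 over 15.3 to 20.9 TPM in PLX5622 mice. Adora2a, the adenosine receptor, ran from 4.53 over 36.9 to 59.7 TPM and from 11.7 over 46.4 to 61.0 TPM, and its 13.2-fold span in control mice fell to 5.765-fold without mouse 2 at ZT10. Penk, the precursor of enkephalin, ran from 75.04 over 232 to 465 TPM and from 120 over 317 to 404 TPM. Control mouse 2 at ZT10 was lowest for Adora2a and Penk, and PLX5622 mouse 4 at ZT22 was lowest for Drd2.

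Of the signalling proteins of both pathways, Ppp1r1b and Pde10a had the narrowest spans, 3.77-fold and 4.69-fold in control mice, or 3.06-fold and 2.98-fold without mouse 2 at ZT10. Ppp1r1b, which encodes DARPP-32, ran from 95.0 over 237 to 358 TPM in control mice and from 109 over 267 to 337 TPM in PLX5622 mice. Rgs9, a regulator that speeds the shut-off of G proteins at dopamine receptors, ran from 5.79 over 22.4 to 43.8 TPM and from 10.2 over 29.6 to 38.3 TPM. Pde10a, a phosphodiesterase that breaks down cyclic AMP and cyclic GMP, ran from 10.54 over 28.7 to 49.4 TPM and from 17.0 over 32.9 to 47.7 TPM. For each of the 7 genes the median was higher in PLX5622 than in control mice, while the highest value was higher in control mice for all but Adora2a. The lowest value was higher in PLX5622 mice for all but Drd2. Without control mouse 2 at ZT10, the lowest value was higher in control mice for Ppp1r1b, Penk and Rgs9 as well. The ranges of the diets overlapped over most of their length, and the 7 genes varied together, so these orders are not separate observations.

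**Figure D1:**
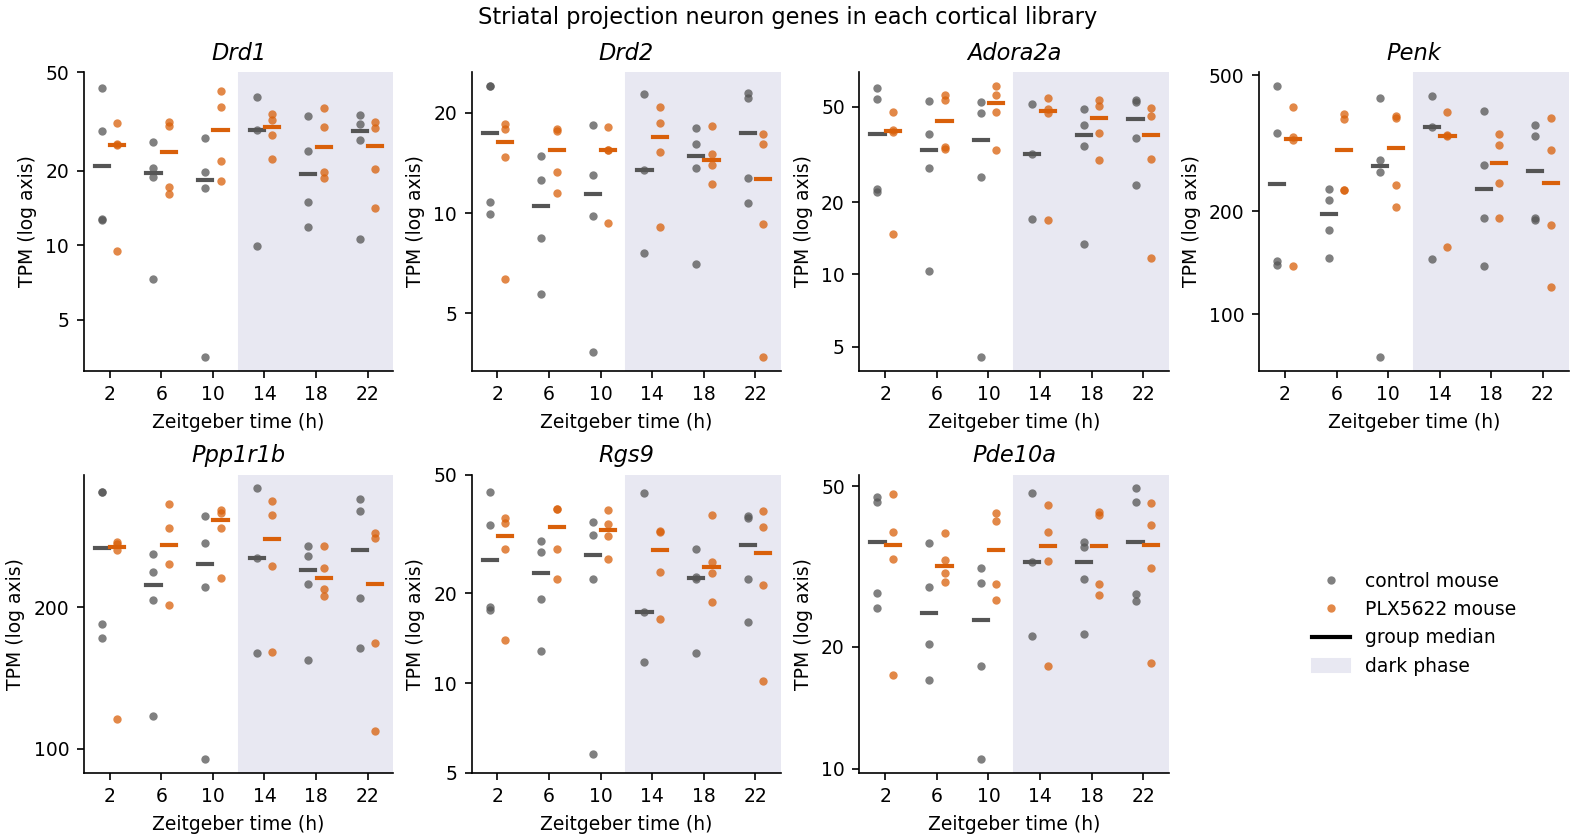
TPM of each of the 7 genes (log axis) against Zeitgeber time, 1 point per mouse, grey for control and orange for PLX5622, with bars for group medians and shading for the dark phase. The mice of 1 diet and time lie several-fold apart, and the diets overlap at every time for every gene.

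The spread within the 12 groups of diet and time was several times that of most genes. The within-group SD of log2(TPM + 1) was 0.71 for Drd1, 0.60 for Drd2, 0.80 for Adora2a, 0.65 for Penk, 0.51 for Ppp1r1b, 0.62 for Rgs9 and 0.49 for Pde10a. The median over the 8129 genes that averaged 10 TPM or more was 0.18. Among those genes Adora2a ranked 36th by SD and Pde10a, the lowest of the group, 118th, and among all 14580 genes tested they ranked 233rd and 742nd. The 12 groups accounted for 10.2% (Penk) to 21.5% (Pde10a) of the variance of the 7 genes, against a median of 29.6% over all genes tested.

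The genes were high and low in the same mice. After the means of the 12 groups were removed, the 21 pairs of members had a Pearson r between 0.87 (Drd1 and Pde10a) and 0.98 (Drd2 and Ppp1r1b), with a mean of 0.93 over 47 libraries. The Spearman correlation ran from 0.85 to 0.97. The mean r was 0.94 in control mice alone and 0.91 in PLX5622 mice alone. It stayed between 0.91 and 0.93 with any 1 library left out, and was 0.95 on log2 CPM from the counts. These values describe what the genes were selected for, and the pairs share their libraries.

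In 17 libraries all 7 genes were below their medians, in another 17 all 7 were at or above them, and 13 libraries had a mix. Of the first kind 10 were control and 7 PLX5622, and of the second 6 were control and 11 PLX5622. Control mouse 2 at ZT10 had the lowest value of 6 of the 7 genes. Its group mates at ZT10, mice 1, 3 and 4, had 19.8, 17.0 and 27.2 TPM of Drd1 beside its 3.53, and 47.1, 25.4 and 52.5 TPM of Adora2a beside its 4.53. PLX5622 mouse 4 at ZT22 was the next lowest by the mean of the 7 genes, with 11.7 TPM of Adora2a against 30.2, 45.8 and 49.4 TPM in mice 1, 2 and 3 of its group. The 10 libraries with the lowest mean held 7 control and 3 PLX5622 mice, and the 10 with the highest mean held 5 of each.

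**Figure D2:**
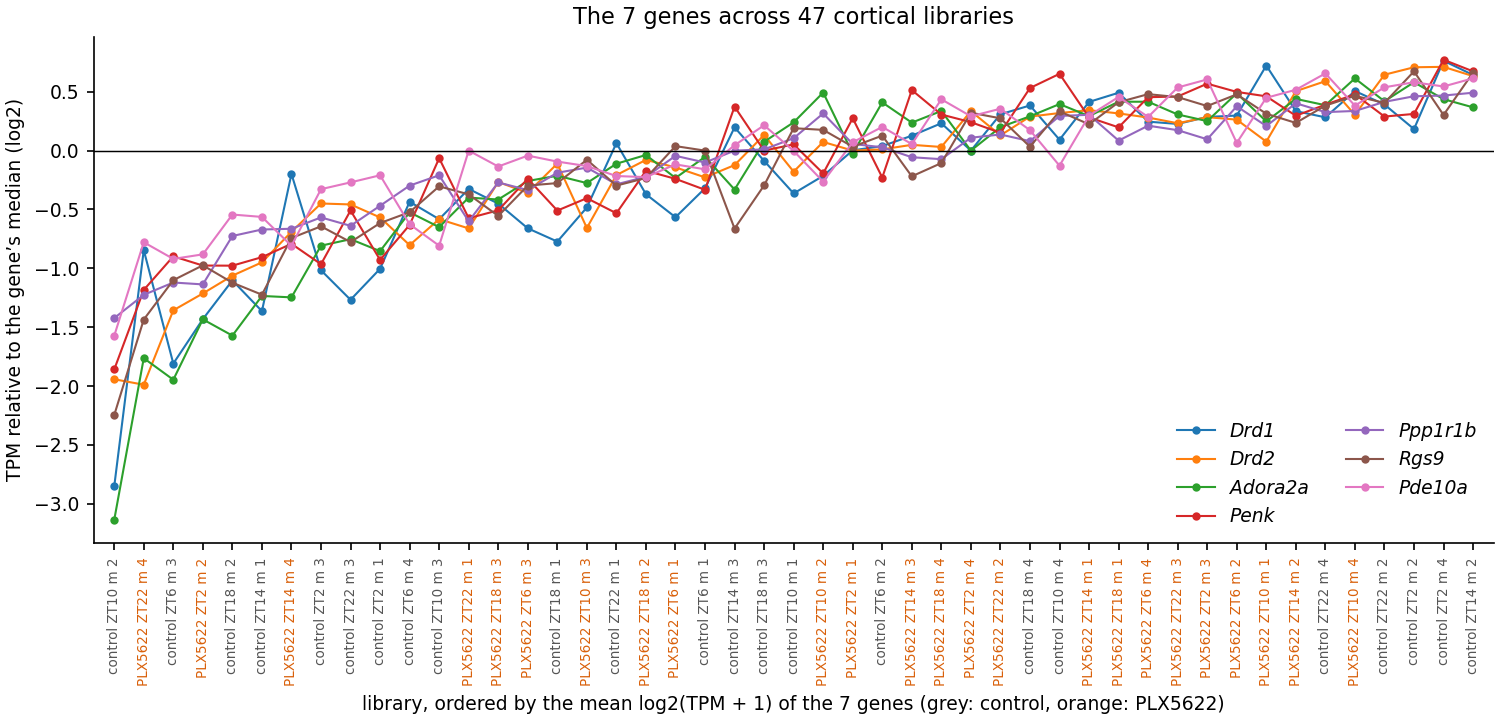
TPM of the 7 genes relative to each gene's median over the 47 libraries (log2), with the libraries ordered by the mean log2(TPM + 1) of the 7 genes and their names grey for control and orange for PLX5622. The lines rise from control mouse 2 at ZT10 at the left to control mouse 2 at ZT14 at the right, and are farthest apart in the lowest libraries.

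The ratio of the D1 to the D2 receptor is given as a description, since both genes were selected for varying together. The ratio of Drd1 to Drd2 in TPM ran from 0.923 over a median of 1.49 to 2.24 in control mice and from 1.29 over 1.76 to 3.83 in PLX5622 mice. The SD of its log2 over all 47 libraries was 0.37, beside 0.73 for Drd1 and 0.64 for Drd2. PLX5622 mouse 4 at ZT22 had the highest ratio, with 14.2 TPM of Drd1 and 3.70 TPM of Drd2, and control mouse 2 at ZT10 the lowest. The ratio of Tac1, the substance P precursor of the direct pathway, to Penk ran from 0.201 to 0.42 with a log2 SD of 0.23.

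Likeness to the 7 genes was measured over the other 14573 genes as the Pearson r of each gene's residual with the mean residual of the 7 (47 libraries, group means removed). The 10 genes most like them included Pde1b (r = 0.98), Gpr6 (0.97), Scn4b (0.96), Tac1 (0.95), Rasd2 (0.93), Arpp21 (0.92), Slc35d3 (0.91), Serpina9 (0.91) and Inf2 (0.91). Pde1b is a calcium-dependent phosphodiesterase, Gpr6 is an orphan receptor known from striatum, Scn4b is a sodium channel subunit, and Rasd2 encodes the small G protein Rhes. Of the 10, 8 were on a list of 43 tested genes of striatal projection neurons outside the 7. Pde1b averaged 114 TPM and Slc35d3 2.95 TPM, so the likeness was not limited to abundant genes. Only 1.19% of all genes had an r above 0.5 and 0.247% above 0.8, and the median r was -0.04.

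On the striatal projection neuron list, 34 of 43 genes had an r above 0.5, 21 were above 0.8 and 3 were below 0. Its 6 highest included Pde1b, Gpr6, Scn4b, Tac1 and Rasd2. Its 6 lowest were Eya1 (-0.30), Ebf1 (-0.20) and Prkcd (-0.09), followed by Oprm1 (0.02), Gpr155 (0.14) and Cnr1 (0.25). Cnr1, the cannabinoid receptor, and Prkcd, a protein kinase C, are also well known outside the striatum. The summed level of the 44 genes found ran from 1194 over a median of 2199 to 2755 TPM, with Arpp19 the most abundant (223 to 414 TPM), and its mean had an r of 0.98 with the 7 genes (0.97 without the 2 libraries farthest from the median, control mouse 2 at ZT10 and PLX5622 mouse 4 at ZT22).

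Some markers of striatal cholinergic interneurons had a high r as well. Cholinergic interneurons, the large acetylcholine cells of the striatum, were represented by 8 genes, of which 5 passed the filter. Their summed level ran from 5.43 over 15.7 to 27.8 TPM, with Ecel1 the most abundant (2.05 to 14.4 TPM), and 3 of the 5 had an r above 0.5. The mean of the 5 had an r of 0.70 with the 7 genes (Spearman 0.71), and its highest gene was Lhx8, a transcription factor of these cells (0.72). Chat, the acetylcholine-synthesizing enzyme, had an r of 0.60 at a mean of 1.93 TPM.

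Markers of cortical excitatory neurons did not share the pattern. The 18 genes of that list had a median r of -0.16, with Tle4, a layer 6 regulator, the highest at 0.20, and their summed level ran from 855 over 1091 to 1629 TPM. The 8 cortical interneuron genes had a median r of 0.24, with Sst (somatostatin) the most abundant at 280 to 570 TPM and Slc32a1, the vesicular GABA transporter that striatal neurons also use, the highest at 0.48. The claustrum and deep insular list had a median r of 0.21 and an r of 0.40 for its mean, with Gng2 the most abundant (65.2 to 143 TPM) and Oprk1, the kappa opioid receptor, the highest at 0.64. In the amygdala and piriform list Lmo3 was both the most abundant (51.1 to 95.9 TPM) and the highest at 0.52, and the median was -0.23.

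Hippocampal genes ran against the striatal genes. The 7 hippocampal genes tested of 10 had a median r of -0.43, although Wfs1, the most abundant (23.0 to 55.3 TPM), had the highest r at 0.30, and the r of their mean was -0.57 (-0.54 without the 2 libraries). Their summed level ran from 54.2 over 73.7 to 108 TPM. Astrocyte genes had a median r of -0.37, with Gfap, the intermediate filament of astrocytes, at -0.59, Slc1a3 the highest at -0.25 and Slc1a2 the most abundant (306 to 589 TPM). The 5 genes tested of the midbrain dopamine list had a median of -0.46, with Aldh1a1 the most abundant (49.7 to 152 TPM) and Th, tyrosine hydroxylase, the highest at -0.22. The 5 genes least like the 7 of all genes were Chd9 (-0.73), Lmo1 (-0.72), Hsd11b1 (-0.68), C1ql2 (-0.67) and Cabp7 (-0.66). Chd9 is a chromatin remodeller, Hsd11b1 the enzyme that regenerates active glucocorticoid, and C1ql2 a synaptic protein of hippocampal granule cells.

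The remaining lists stayed nearer to 0. The medians of r were -0.20 for thalamus (Calb2 most abundant, Synpo2 highest at -0.13), -0.16 for choroid plexus (Ttr most abundant at 61.1 to 1241 TPM, Clic6 highest at 0.15) and -0.11 for ependymal cells (Rarres2 both, at 0.11). They were -0.12 for oligodendrocytes (Mbp most abundant at 2335 to 5409 TPM, Mog highest at 0.04) and -0.15 for endothelial cells and blood (Hbb-bs most abundant at 79.8 to 1366 TPM, Hbb-bt highest at -0.09). Microglial genes, which the diet removed, had a median r of 0.23 within groups (Aif1 highest at 0.28). Immediate early genes had 0.19 (Arc most abundant, Egr2 highest at 0.33) and clock genes 0.05 (Dbp both, at 0.28). No gene of these lists was listed at 0 in every library. The mean residual of the 7 genes had an r of 0.06 with that of the log2 total count and of 0.22 with that of the mitochondrial share of counts.

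**Figure D3:**
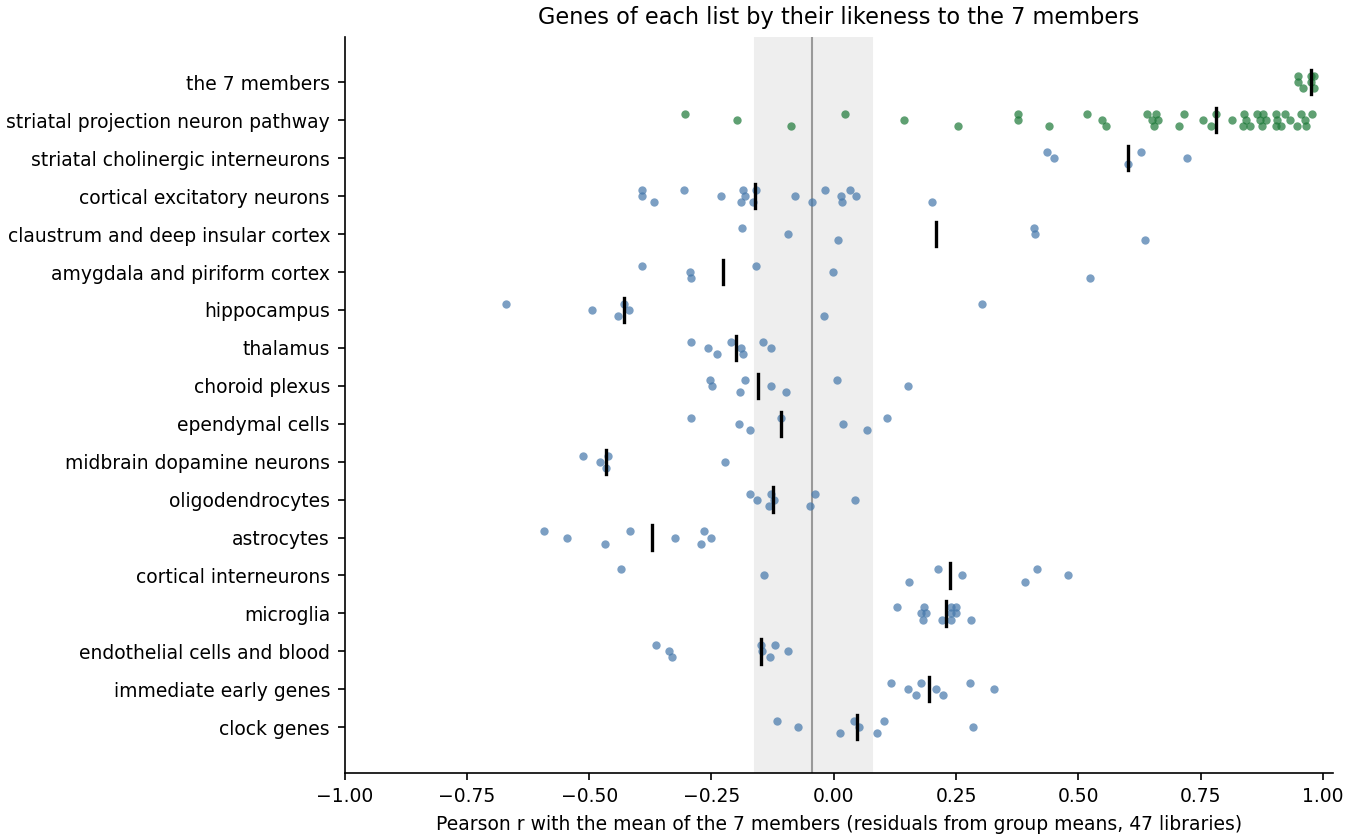
Pearson r of each gene's residual with the mean residual of the 7 members over 47 libraries, 1 point per gene, with a row per list, black bars for list medians, and a grey band and line for the quartiles and median of all genes. The members (median 0.98, selected for this), the pathway list (0.78) and the cholinergic interneurons (0.60) lie to the right, and the hippocampal, astrocyte and midbrain lists to the left.

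The study asked what the loss of microglia does to cortical expression over the day, so the 7 genes were set against diet first. None of them passed. limma called 503 of 14580 genes for diet (3.45%, Benjamini-Hochberg adjusted p under 0.05), and 0 of the 7 members were among them. At an unadjusted p under 0.05 there were also 0 members, without the share of all genes beside it. On the counts edgeR called 1210 of 16960 genes and DESeq2 1365 of 23471, again with 0 members. All 7 limma estimates were positive, while that of Ppp1r1b was -0.0019 with edgeR and -0.0036 with DESeq2. The 7 genes were selected for varying together, so their like signs are not separate observations. Drd1 was highest with a log2 difference, PLX5622 minus control, of 0.34 (SE 0.19, limma adjusted p = 0.359), which is 1.27-fold on the scale of TPM + 1. Adora2a had 0.30 (SE 0.21), Rgs9 0.26 (SE 0.16), Penk 0.22 (SE 0.17) and Pde10a 0.18 (SE 0.13). Drd2 and Ppp1r1b both had 0.09, with SEs of 0.17 and 0.14. Without control mouse 2 at ZT10 the estimates were lower, at 0.24 for Drd1, 0.18 for Adora2a, 0.14 for Penk, 0.02 for Drd2 and 0.03 for Ppp1r1b. Without PLX5622 mouse 4 at ZT22 they were higher, at 0.17 for Drd2, 0.14 for Ppp1r1b and 0.38 for Adora2a. The median over the 7 was 0.22 and over all genes 0.03.

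At single times the ranges of the diets overlapped in 42 of 42 combinations of gene and time. The share of all genes with such an overlap is not given here, so this count has no background beside it. limma called 1.29% of genes at ZT2, 1.01% at ZT6, 1.07% at ZT10, 0.905% at ZT14, 0.809% at ZT18 and 1.30% at ZT22, and 0 of the 7 members at any time. The signs of the 7 estimates at a time are not independent, since the genes were selected for varying together. At ZT6, ZT10 and ZT18 all 7 estimates were above 0, but 6 were without control mouse 2 at ZT10 and 4 without control mouse 2 at ZT18. At ZT22 all 7 were below 0, from -0.64 (Drd2, SE 0.41) to -0.03 (Drd1, SE 0.48), but without PLX5622 mouse 4 at that time 5 were above 0 (-0.23 to 0.19). At ZT2 they ran from -0.23 (Drd2, SE 0.41) to 0.23 (Penk, SE 0.44), with 2 above 0, but 7 without PLX5622 mouse 2 and 0 without control mouse 1 or 3. At ZT14 they ran from -0.02 (Pde10a, SE 0.36) to 0.32 (Adora2a, SE 0.59), with 6 above 0, but 0 without control mouse 1. Only at ZT10 did members reach an unadjusted p under 0.05, namely Drd1 (log2 difference 0.97, SE 0.48, limma adjusted p = 0.662) and Pde10a (0.70, SE 0.33, limma adjusted p = 0.617). Both rested in part on control mouse 2, without which they were 0.40 and 0.41. They are 2 of the 42 combinations of gene and time, and the share of all genes at that unadjusted threshold is not given here.

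Time of day gave no call for the members either. limma called 767 genes (5.26%) for a 24-h rhythm and 1609 (11.0%) for any difference among the 6 times, with 0 of the 7 members in each. The fitted amplitude, which is never negative, ran from 0.03 (Adora2a) to 0.16 (Pde10a, limma adjusted p = 0.496) on the log2 scale, with a median of 0.08 over the 7 and 0.07 over all genes. For a difference of rhythm between the diets limma called 0 genes (0%), 669 at an unadjusted p under 0.05 and 0 of these among the members. edgeR and DESeq2 also called 0 members in these comparisons, beside 2074 of 16960 and 2420 of 18435 genes for rhythm. For a difference among times they called 2547 of 17588 and 3276 of 17715 genes. For the difference of rhythm they called 0 genes, or 17 genes with edgeR without a filter.

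The shared variation was then held constant. The mean log2(TPM + 1) of the 43 other striatal projection neuron genes entered the model as a covariate, so that each member was compared at the same level of striatal transcripts. The SE of the diet difference fell from 0.19 to 0.08 for Drd1, from 0.21 to 0.09 for Adora2a and from 0.17 to 0.06 for Drd2. The differences shrank to 0.17 for Drd1 (limma adjusted p = 0.26), 0.11 for Adora2a and for Rgs9, 0.06 for Penk and for Pde10a, and took the other sign for Drd2 (-0.07) and Ppp1r1b (-0.04). limma called 469 genes (3.22%) for diet in this model and 0 members.

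**Figure D4:**
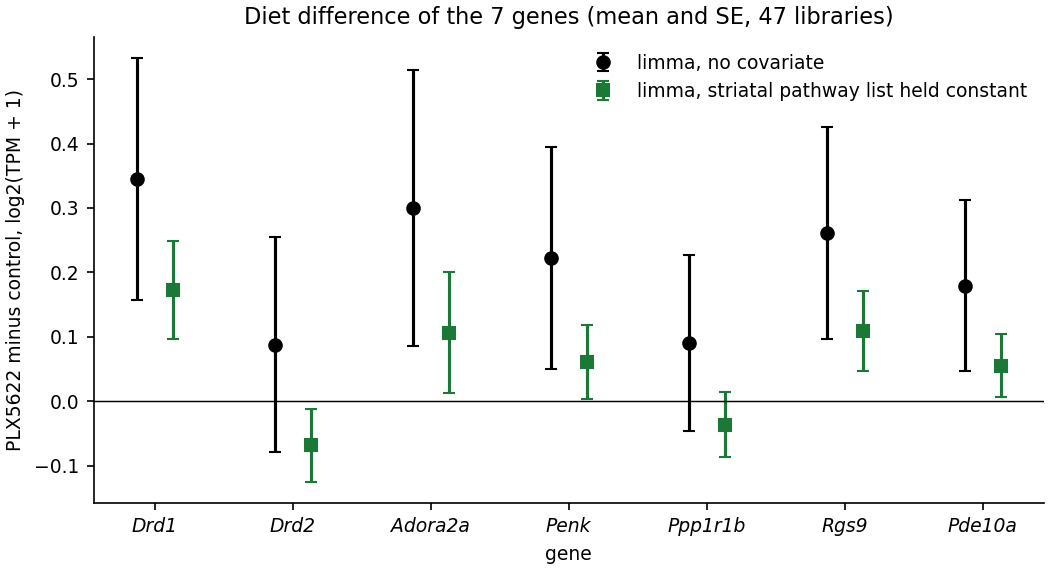
Difference between PLX5622 and control mice in log2(TPM + 1) for the 7 genes, with points for the limma estimate, bars for 1 SE, circles without and squares with the striatal pathway list as a covariate (47 libraries). The squares lie nearer to 0 than the circles and have shorter bars, and Drd2 and Ppp1r1b cross to below 0. The shorter bars follow from the selection of genes that vary together.

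With the striatal level held constant, Rgs9 and Pde10a passed the rhythm test. The level left over a straight line on the pathway list, fitted to all libraries, is given first. For Rgs9 it was lowest at ZT14, where it ran from -0.73 over -0.26 to 0.04 (log2, 7 mice), and highest at ZT6, where it ran from -0.06 over 0.26 to 0.45 (8 mice). At ZT14 6 of the 7 mice, both diets included, lay below the whole range of ZT6. The fitted amplitude was 0.18 on the log2 scale with a peak at ZT4.69, in the light phase (limma adjusted p = 0.0256). With the diets pooled, Pde10a was lowest at ZT10 and ZT14, with medians of -0.15 (8 mice) and -0.12 (7 mice). Its highest pooled medians were at ZT22 and ZT18, 0.14 and 0.085 (8 mice each). The medians at ZT10 were -0.30 in control and 0.005 in PLX5622 mice and at ZT14 -0.07 and -0.17. The ranges of the diets overlapped at both of these times. At ZT22 they did not overlap, with -0.05 to 0.13 in control and 0.15 to 0.27 in PLX5622 mice. With 7 genes at 6 times to look at and 4 mice per diet here, such a separation can arise by chance. A diet difference at ZT22 was not tested in this model, and the share of all genes so separated is not given. Control mice alone had a higher median at ZT2, where they ran from -0.03 to 0.27, than at ZT22. The amplitude of Pde10a was 0.14 with a peak at ZT22.8, late in the dark phase (limma adjusted p = 0.0185). The background for this test was 785 genes (5.38%), and the 5 other members did not pass, Ppp1r1b coming nearest (amplitude 0.09, limma adjusted p = 0.219).

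Both genes also differed among the 6 times by limma in this model (Rgs9 adjusted p = 0.00191, Pde10a 0.0318), where 1514 genes (10.4%) were called. For Pde10a this call was lost without control mouse 3 or 4 at ZT10, PLX5622 mouse 2 at ZT10, or PLX5622 mouse 3 or 4 at ZT14 (limma adjusted p = 0.0526 to 0.0586). Adora2a missed the threshold with limma (adjusted p = 0.0683) but passed with edgeR (0.0234), with DESeq2 (0.0157) and with limma and the replicate number as a block (0.0406). In all, 4 members passed with edgeR, where Drd2 joined, and 6 with DESeq2, all but Penk. The share of all genes that these 2 tools called in this model is not given here, so these counts have no background beside them. Neither rhythm differed between the diets by limma (adjusted p = 0.999 for both, 0 genes or 0% called). Fitted in each diet alone, the peaks were at ZT5.00 in control and ZT4.96 in PLX5622 mice for Rgs9 and at ZT22.6 and ZT22.9 for Pde10a, without a call in either diet (limma adjusted p = 0.40, 0.322, 0.318 and 0.457). The rhythm of both was called without any 1 of the 47 libraries, with adjusted p of at most 0.0458. It was not called for either gene by edgeR on the counts with the same covariate (adjusted p = 0.0772 and 0.0645), and for Pde10a alone by DESeq2 (0.0593 and 0.0469). The amplitudes, 0.18 and 0.14 with the covariate, lie below the mouse to mouse spread of the levels without it, 0.62 and 0.49. They are close to the spread of the level left over with the diets pooled. Its SD at single times was 0.15 to 0.25 for Rgs9 and 0.11 to 0.22 for Pde10a.

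**Figure D5:**
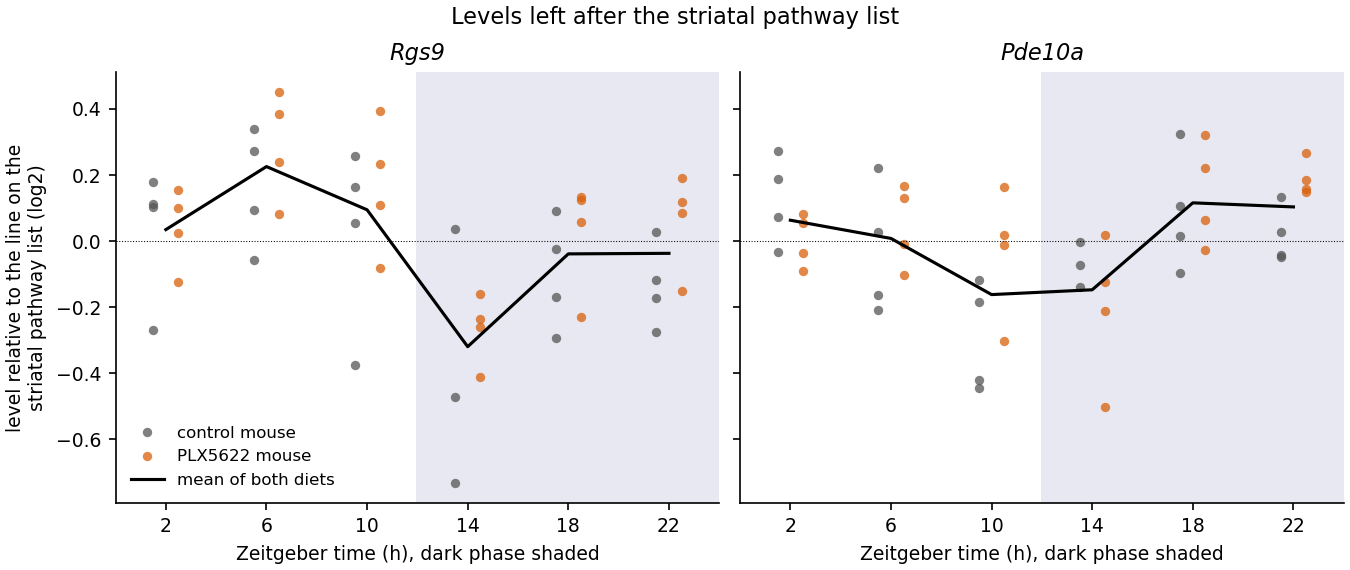
Level of Rgs9 and Pde10a relative to a line on the mean of the striatal pathway list (log2) against Zeitgeber time, 1 point per mouse, grey for control and orange for PLX5622, with a line for the mean of both diets and shading for the dark phase. Rgs9 dips at ZT14 in both diets, and the lowest group median of Pde10a is at ZT10 in control and at ZT14 in PLX5622 mice.

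The pathway list was examined in the same way. Without a covariate limma called 0 of its 43 genes for diet (beside 3.45% of all genes), 0 for a 24-h rhythm (beside 5.26%) and 0 for a difference of rhythm (beside 0%). For a difference among times it called 2 (beside 11.0%), Chrm4, the muscarinic M4 receptor that opposes D1 signalling (limma adjusted p = 0.00658), and Zfp503, a zinc finger regulator of striatal development (limma adjusted p = 0.0432). With the mean of the 7 members as the covariate, the list had 1 call for diet beside a background of 3.24%, Rasd2. At the same level of the members, Rasd2 was lower in PLX5622 mice by a log2 difference of -0.16 (SE 0.04, limma adjusted p = 0.0247). Without the covariate its difference was -0.03 (SE 0.11, limma adjusted p = 0.905). The list had 2 calls for rhythm beside 5.45%, Chrm4 (amplitude 0.23, peak at ZT13.3, limma adjusted p = 0.0359) and Kcnip2, a potassium channel-interacting protein (amplitude 0.11, peak at ZT1.18, limma adjusted p = 0.00378). For a difference among times it had 3 beside 11.5%, Chrm4, Kcnip2 and Zfp503. These shares, 1, 2 and 3 of 43, were close to the backgrounds.

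The level of the striatal genes had a modest bearing on the calls of other genes. With the 7 members' mean as a covariate, 473 of the other 14573 genes were called for diet by limma in place of 503, and 437 were called in both models. For the 24-h rhythm there were 791 in place of 767, with 746 in both. Of the 174 genes with an r above 0.5 with the members, 1 was called for diet (0.575% beside 3.45% of all genes), Arhgdib, a gene of blood and microglial cells, 6 for rhythm (3.45% beside 5.26%) and 8 for a difference among times (4.60% beside 11.0%). Of the 36 with an r above 0.8, 0 were called in any of these comparisons.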

How the data were processed

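RNA from the cortex of 47 mice was sequenced, 1 library per mouse, and groups came from the sample labels, which give no cage or batch. The authors aligned with STAR to GRCm38.p6, kept reads on primary chromosomes, and made the deposited TPM values with Salmon and Gencode. The second deposited table is named for FPKM but holds whole-number counts per gene without normalization. The submitters' notes also name featureCounts, edgeR and limma without a role, and whether strand was used is not given in the sources used here. The tables shared 53068 genes, and each of the 47 TPM columns was most like its own counts. Over 69 pairs of libraries within a group, chi-square per degree of freedom was at least 4.30, so no library was a repeat of another.

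The 7 genes, the lists and the tests were chosen with earlier results of these data known. Identifiers were named with GENCODE M21 (99.68% of the TPM table). Tests used log2(TPM + 1) for genes averaging 1 TPM or more, with limma 3.58.1 (R 4.3.3), diet and the cosine and sine of a 24-h period as terms, and Benjamini-Hochberg adjustment over all genes at 0.05. Other models took time as a factor, the interaction, diet within each time, or the mean of the pathway list or of the 7 genes as a covariate. Covariation was computed on residuals from the 12 group means. edgeR 4.0.16 and DESeq2 1.42.0 were run on the counts, and the pseudocount, filter, scaling, replicate number and each library in turn were varied. In simulated data, 200 genes were changed by 1 on the log2 scale, and limma recovered 99.5% for diet, 98.5% for rhythm, 97.5% for the difference of rhythm and 90% for diet at ZT2. These shares are for genes drawn from all those tested, most of which vary less than the 7 genes, and were not computed for the 7. P-values set each difference against the spread between mice, or, with a covariate, against the spread left after it.

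Named genes were the 7, pathway genes that passed a test, the 6 pathway genes with the highest and the 6 with the lowest r, the 10 genes most and the 5 least like the 7, the most abundant and most alike gene of each other list, and Csf1r, Dbp and Arntl as checks. Chat, Gfap, Slc17a7 and Arhgdib were named after their values were seen. The pathway gene Gpr52 was not found by symbol and Drd3 was below the filter. A few genes that this rule names are not reported here.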

Additional observations from a re-analysis of the deposited data

Results flagged for a closer look

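In groups of 4 mice, 4 of 88 combinations of a measure (the 7 genes on the log2 scale, or the ratio of Drd1 to Drd2) and a group had 1 mouse far from the other 3 by Dixon's test. Chance alone gives about 1 in 20. In PLX5622 mice at ZT2, mouse 2 was low for Drd1 (9.45 TPM beside 25.5, 25.5 and 31.1, gap over range 0.8294), for Adora2a (14.8 TPM beside 39.2, 39.9 and 47.5, 0.8335) and for Ppp1r1b (115.8 TPM beside 264.8, 272.2 and 274.7, 0.9576). In PLX5622 mice at ZT14, mouse 4 was low for Adora2a (16.8 TPM beside 47.04, 48.9 and 54.1, 0.8786). The first 3 of these come from 1 library, and the genes were selected for varying together. Control mouse 2 at ZT10 and PLX5622 mouse 4 at ZT22, the libraries with the lowest mean of the 7 genes, were not singled out by this test.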

How the results depend on the processing

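Members called for diet, for rhythm and for differences among times stayed at 0 when the pseudocount, filter, scaling, tool or replicate number was changed. They also stayed at 0 with any 1 library left out. For diet at each time they were 0 in all 51 alternatives run, fewer than the 57 run for diet over all times. With the pathway list as covariate they were 2 for the 24-h rhythm and 2 for the difference among times. The diet difference took the other sign for Drd2 (-0.06872) and Ppp1r1b (-0.037) with that covariate, and for Ppp1r1b with edgeR (-0.0019) and DESeq2 (-0.0036), none of them past the threshold. The mean pairwise r was 0.8969 on values in place of residuals, and 0.9123 to 0.9314 without 1 library.

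With the pathway list as covariate, the alternatives were added after seeing the data, as were the spans without control mouse 2 at ZT10. The 2 rhythm calls were 2 with pseudocount 0.1, the replicate block, the list without Chrm4, Kcnip2 and Zfp503, and in all 47 fits without 1 library. They were 3 with the other 6 members as covariate, where Ppp1r1b joined. Those 6 were selected on these data for varying with the member tested, so this setting is no independent check. The share of all genes called in it is not given here. The rhythm calls were 0 with edgeR, 1 with DESeq2, 0 in control mice alone and 0 in PLX5622 mice alone, fits with fewer libraries. The 2 calls for a difference among times were 4 with edgeR (Drd2 and Adora2a joined) and 6 with DESeq2 (all but Penk), and the cause was not tested. These counts stand without the share of all genes that each tool called in the same model. Without 1 library the limma calls ranged from 1 to 4. Pde10a was lost without control mouse 3 or 4 at ZT10, PLX5622 mouse 2 at ZT10 or PLX5622 mouse 3 or 4 at ZT14 (limma adjusted p = 0.0526 to 0.0586), and without control mouse 3 at ZT6 there were 4. With the replicate block Adora2a joined (limma adjusted p = 0.0406).

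The number of all genes called moved more. For diet (503) it was 298 at a mean of 5 TPM, 1210 with edgeR, 1278 with edgeR unfiltered and 1365 with DESeq2. For rhythm (767) it was 1336 with median-of-ratios scaling, 2074, 2107 and 2420 with the same tools. For the difference of rhythm (0) it was 17 with unfiltered edgeR. For differences among times (1609) it was 2547 with edgeR, 3276 with DESeq2 and 2801 with the replicate block. For diet at single times, a mean of 5 TPM left 78 (ZT2), 50 (ZT6), 59 (ZT10), 40 (ZT14), 43 (ZT18) and 77 (ZT22), and no filter gave 229 (ZT6), 273 (ZT10) and 206 (ZT14). A stricter filter tests fewer genes. The other causes were not tested. Without 1 library the diet count ran from 429 to 634, that for rhythm from 619 to 876 and that for times from 1121 to 2222.

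The replicate numbers were not taken as pairing the mice, since no label says that they mark a shared batch and not every pair correlated above 0.1. Control and PLX5622 mice of 1 time and number had a median residual correlation of 0.07, with 7 of 23 pairs above 0.1, against -0.02 and 6 of 69 pairs for other numbers, and 11 of 23 control mice were most like their own number, which is a hint from the data and not from the design. With the replicate block limma called 578 genes for diet, 1043 for rhythm and 0 members.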
